A study of Mus musculus with 6 samples.

Results

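Interferon-stimulated effector genes are the genes that carry out the antiviral and cell-autonomous defence programme that interferons switch on. A set of 40 such mouse genes was chosen by name, from Ifit1 to Adar, and all 40 were found among the 54532 genes of the deposited expression table. They were examined in primary macrophages of WT genotype from the mouse. Of the 6 RNA-seq libraries, 3 came from cells pretreated with vehicle and 3 from cells pretreated with rmMETRNL for 6 h, and all 6 were then challenged with Candida albicans for 6 h. METRNL, meteorin-like, is a secreted protein made by macrophages and other cells. Both groups met the yeast and no unchallenged sample is part of the comparison, so the values compare pretreatments and do not give the response to the yeast. The labels do not state the age or strain of the mice, nor whether the replicates were separate cultures or mice, so the p-values reflect sample-to-sample spread that could be purely technical. The column names carry short codes, the code with the letter r was read as rmMETRNL, and every direction below rests on that reading.

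Type I interferons signal through IFNAR1 and IFNAR2 and the kinases JAK1 and TYK2 to a transcription factor complex that binds interferon-stimulated response elements in the promoters of its target genes. Interferon gamma signals through IFNGR1 and IFNGR2 to gamma-activated sites. In macrophages the type I programme is known above all from viral and bacterial stimulation, in which newly made interferon beta acts back on the same cells, and the gamma programme includes the GTPases that attack vacuoles holding microbes. These statements are background to the measurements that follow.

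The promoters are shown first because the set is defined by a shared mode of control, and levels in these libraries ranged widely among genes that carry the same element. RefSeq promoter windows (GRCm38.p6, 250 bases before to 50 bases after the start site) were found for 31 of the 40 genes. The other 9 were Parp14, Oas2, Dhx58, Iigp1, Mx1, Mx2, Rtp4, Ifi204 and Usp18. Some genes, such as Adar and Trim30a, have more than 1 start site and window. A gene was counted as holding a core if any of its windows did. The response element core, searched on both strands as GAAA, any 2 bases and GAAA again, occurred in 20 of the 31 genes (64.5%), against 3.99% of the 27025 genes of the promoter table. The gamma-activated site core ttcnnngaa, which reads the same on both strands, occurred in 13 of the 31 (41.9%), against 9.55% of all genes. Both cores were present in 8 genes, and a match of one core overlapped a match of the other in 2 genes. A match describes these letters and is not evidence of binding. The lines below give the 200 bases before the RefSeq start site, 5′ to 3′ on the strand of the gene, with each match to the response element core in capitals; a match may lie on either strand, and overlapping matches form 1 run of capitals. The first 5 are the most abundant genes of different roles with a match in these 200 bases, Bst2 (chr8:71537473-71537672, minus strand), Isg15 (chr4:156200819-156201018, minus strand), Oas1a (chr5:120907526-120907725, minus strand), Trim30a (chr7:104465194-104465393, minus strand) and Rsad2 (chr12:26456453-26456652, minus strand). Ifit1 (chr19:34640689-34640888, plus strand) and Ifit3 (chr19:34583329-34583528, plus strand) were added after their values were seen, because both hold 2 matches and stood near 0.
Bst2: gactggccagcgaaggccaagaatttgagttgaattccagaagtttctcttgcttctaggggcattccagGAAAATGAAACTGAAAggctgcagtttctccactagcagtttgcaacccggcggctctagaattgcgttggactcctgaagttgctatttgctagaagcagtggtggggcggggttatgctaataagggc
Isg15: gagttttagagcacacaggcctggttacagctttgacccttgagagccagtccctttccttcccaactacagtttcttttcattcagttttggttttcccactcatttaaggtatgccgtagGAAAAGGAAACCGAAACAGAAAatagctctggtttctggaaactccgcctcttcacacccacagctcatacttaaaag
Oas1a: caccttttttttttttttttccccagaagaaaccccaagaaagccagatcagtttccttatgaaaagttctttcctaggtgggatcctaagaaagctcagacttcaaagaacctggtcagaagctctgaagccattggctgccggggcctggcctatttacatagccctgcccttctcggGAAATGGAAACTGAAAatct
Trim30a: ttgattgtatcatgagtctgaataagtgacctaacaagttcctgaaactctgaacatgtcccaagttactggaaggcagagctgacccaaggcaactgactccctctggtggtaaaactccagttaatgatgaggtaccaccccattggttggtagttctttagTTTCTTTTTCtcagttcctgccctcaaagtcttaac
Rsad2: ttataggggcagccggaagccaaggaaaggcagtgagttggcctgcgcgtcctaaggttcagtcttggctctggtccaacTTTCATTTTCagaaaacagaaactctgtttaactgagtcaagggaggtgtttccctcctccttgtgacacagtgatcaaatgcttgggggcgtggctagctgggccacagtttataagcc
Ifit1: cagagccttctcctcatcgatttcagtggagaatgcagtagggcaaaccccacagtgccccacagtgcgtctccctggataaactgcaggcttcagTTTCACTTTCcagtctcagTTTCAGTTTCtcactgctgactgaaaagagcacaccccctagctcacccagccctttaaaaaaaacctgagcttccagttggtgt
Ifit3: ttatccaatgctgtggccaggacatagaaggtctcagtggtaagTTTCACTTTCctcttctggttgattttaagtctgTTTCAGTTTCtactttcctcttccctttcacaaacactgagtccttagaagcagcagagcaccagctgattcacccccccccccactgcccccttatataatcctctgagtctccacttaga

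The 20 genes that hold the response element core ranged from a mean of 0.0602 FPKM (Ifit3) to 122 FPKM (Ifitm3), with a median of 1.79 FPKM, and 13 of them reached 1 FPKM. FPKM is the fragment count scaled by gene length and by library size. The 11 genes without a match ranged from 0 to 6.49 FPKM with a median of 1.01 FPKM, and 6 of them reached 1 FPKM. Isg15 holds 3 overlapping matches and had a mean of 26.3 FPKM, while Ifit1 holds 2 separate matches and had 0.0696 FPKM. The 2 matches in Ifitm3 lie just after its start site and are not printed.

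**Figure D1:**
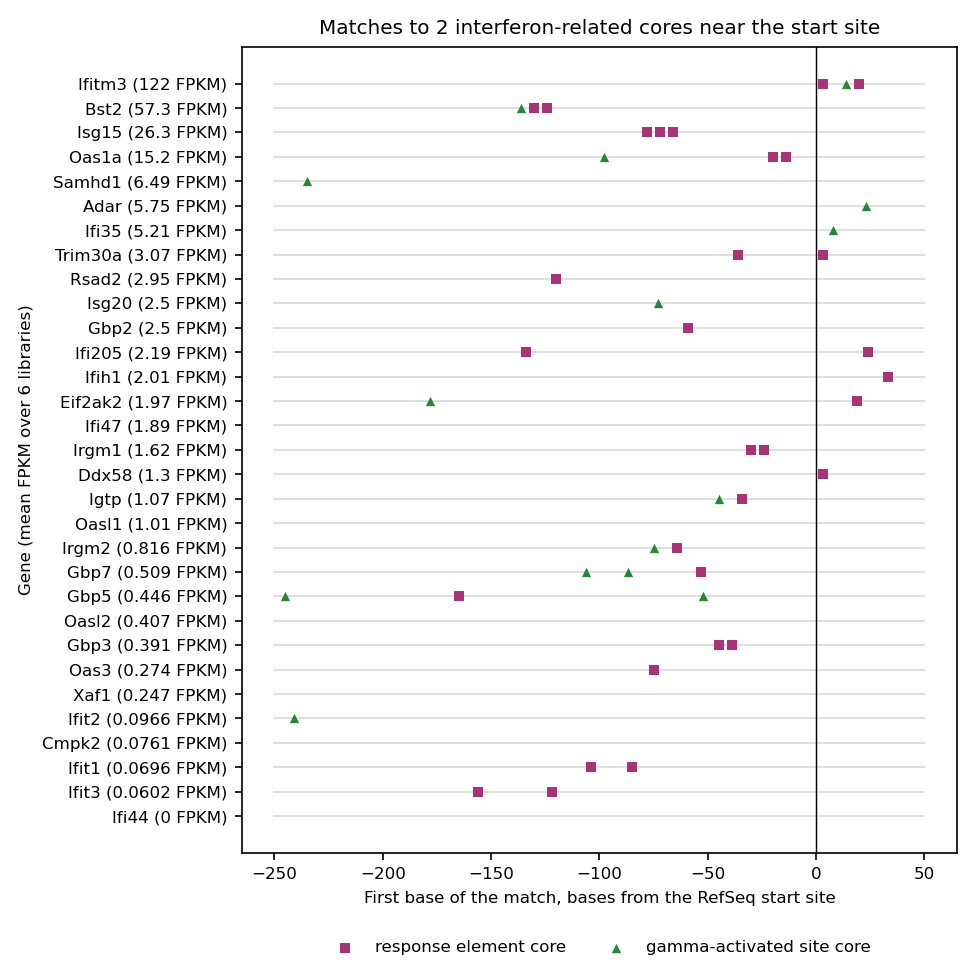
Position of each match to the response element core (squares) and the gamma-activated site core (triangles) in the 31 promoter windows; the x axis is the distance in bases from the RefSeq start site and genes are ordered by mean FPKM over 6 libraries. Squares occur at the top of the order (Ifitm3, Bst2, Isg15, Oas1a) and near its end (Ifit1, Ifit3).

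The levels split the set. Of the 40 genes, 22 (55%) reached a mean of 1 FPKM over the 6 libraries, the level used here for testing, and 18 did not. For comparison, 38.7% of the 22046 protein-coding genes in the table reached it. The 22 had a median of 2.72 FPKM, below the median of 5.88 FPKM of all 9867 genes tested. Only 4 genes exceeded 10 FPKM (Ifitm3, Bst2, Isg15 and Oas1a), and they made up 77.1% to 80.6% of the summed FPKM of the 40 in each library. A further 4 lay between 5 and 10 FPKM (Samhd1, Adar, Ifi204 and Ifi35), 14 between 1 and 5, 10 between 0.1 and 1, and 6 above 0 but under 0.1. Ifi44 and Iigp1 were listed at 0 in every library. Just inside the 1 FPKM limit stood Oasl1 (1.01 FPKM) and Igtp (1.07 FPKM), and just outside it Irgm2 (0.816 FPKM).

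**Figure D2:**
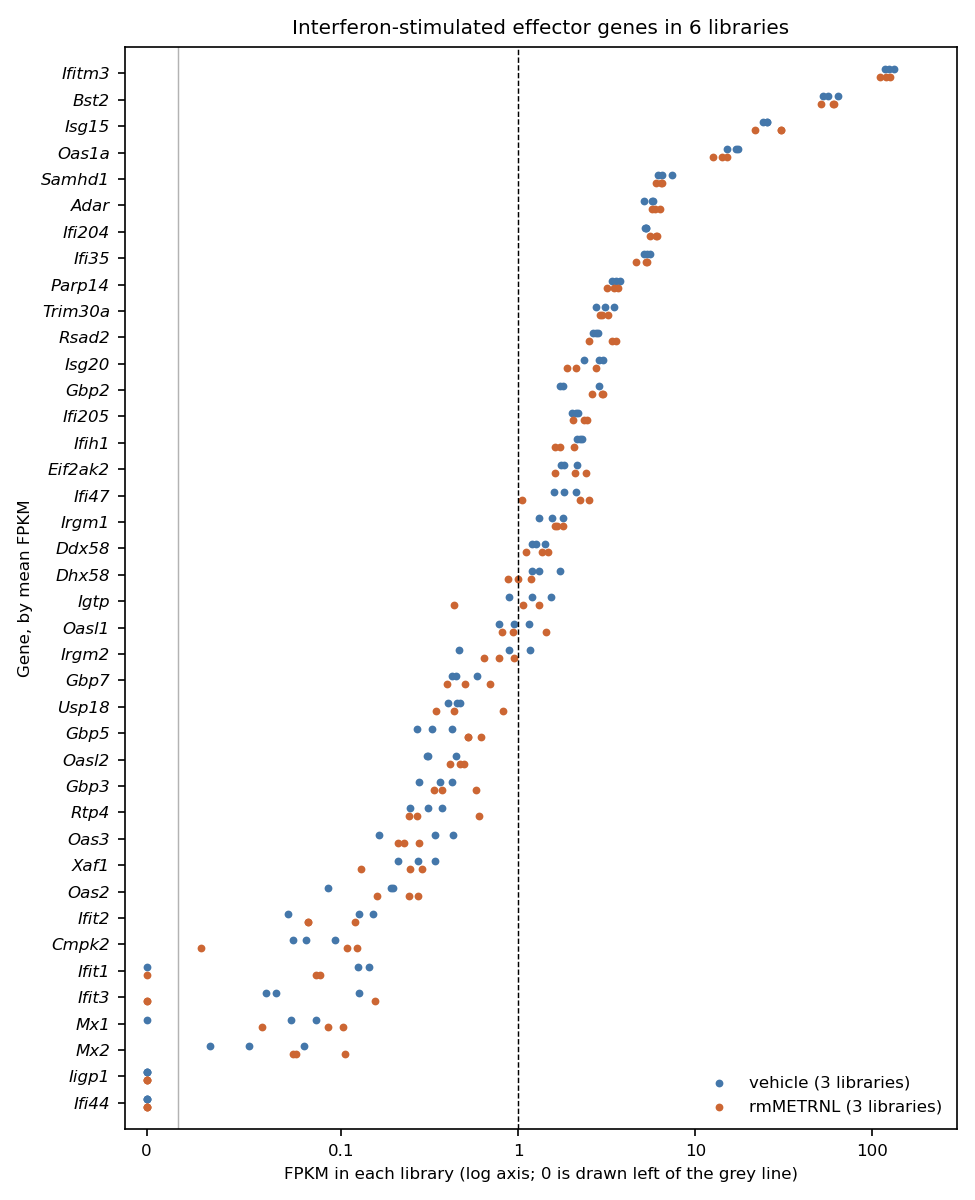
FPKM of each of the 40 genes in each of the 6 libraries on a log axis (blue, vehicle; orange, rmMETRNL; values of 0 are drawn left of the grey line, and the dashed line marks 1 FPKM). The genes span from 0 (Ifi44, Iigp1) to 133 FPKM (Ifitm3), and the colours overlap for most genes.

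The classical type I effectors at the bottom of that order were close to absent in both groups. The IFIT proteins bind viral RNA lacking the host cap marks, and their genes Ifit1, Ifit2 and Ifit3 had at most 9 reads in any library. Ifit2, the most abundant of them, stood at 0.0504, 0.152 and 0.126 FPKM in vehicle libraries 1 to 3 and at 0.0655, 0.0649 and 0.120 FPKM in rmMETRNL libraries 1 to 3. Ifit3 shares 61.8% of its 31-base words with other genes, with Ifit3b sharing more than any other gene, so its count is uncertain. The Mx genes encode dynamin-like GTPases that trap viral particles. Mx1 stood at 0.0523, 0 and 0.0725 FPKM with vehicle and 0.102, 0.0842 and 0.0356 FPKM with rmMETRNL, that is 0 to 6 reads per library, and Mx2, listed as a polymorphic pseudogene, had 1 to 6 reads. Many laboratory strains carry defective Mx alleles, and the strain is not given in the labels. Cmpk2, a mitochondrial nucleotide kinase gene next to Rsad2 on chromosome 12, had 1 to 8 reads. For Ifi44, a count of 0 allows up to 0.0366 FPKM (3 reads in the shallowest library), and for the immunity-related GTPase gene Iigp1 up to 0.0719 FPKM; these limits cover counting error only. In all, 8 of the 40 genes had fewer than 10 reads in every library, too few to show a difference between pretreatments.

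Isg15 and Usp18 form a pair. Isg15 (ENSMUSG00000035692, chromosome 4, 156199424 to 156200818, GRCm38) encodes a ubiquitin-like protein that is attached to other proteins and is also secreted, and Usp18 encodes the protease that removes it and restrains interferon receptor signalling. Isg15 stood at 25.5, 25.5 and 24.2 FPKM with vehicle and at 30.5, 30.4 and 21.6 FPKM with rmMETRNL. rmMETRNL libraries 1 and 2 lay above all vehicle libraries and library 3 lay below them. The difference on the log2(FPKM + 1) scale was 0.11 (SE 0.13; limma adjusted p = 0.735), and 0.27 without rmMETRNL library 3 (limma adjusted p = 0.316). Usp18 was much lower, with 0.346 to 0.822 FPKM over the 6 libraries.

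The OAS family makes the short oligoadenylates that activate RNase L, apart from OASL1, which lacks that activity. Oas1a (ENSMUSG00000052776, chromosome 5, 120896256 to 120907521) was by far its most abundant gene, at 17.5, 16.9 and 15.1 FPKM with vehicle and 14.2, 15.1 and 12.5 FPKM with rmMETRNL. The highest rmMETRNL value just reached the lowest vehicle value. The difference was -0.23 (SE 0.08, 95% interval -0.43 to -0.02), with an unadjusted p of 0.0330 and an adjusted p of 0.314 in limma, so it did not pass. Oas1a shares 68.8% of its 31-base words with other genes, with Oas1g sharing more than any other gene, and reads of these copies may not be told apart. Oasl1 had 0.784 to 1.44 FPKM, and Oasl2, Oas3 and Oas2 had means of 0.407, 0.274 and 0.192 FPKM.

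RIG-I-like receptors sense viral RNA in the cytosol, and the genes of all 3 reached 1 FPKM. Ifih1 (ENSMUSG00000026896, chromosome 2, 62595798 to 62646255), which encodes the sensor of long double-stranded RNA MDA5, stood at 2.28, 2.15 and 2.25 FPKM with vehicle and 2.06, 1.73 and 1.61 FPKM with rmMETRNL. Every rmMETRNL library lay below every vehicle library (difference -0.21, SE 0.09; limma adjusted p = 0.344; -0.31 in voom, which fits log2 counts per library size). Dhx58 (ENSMUSG00000017830, chromosome 11, 100694884 to 100704271), which encodes the regulator LGP2, stood at 1.19, 1.30 and 1.73 FPKM with vehicle and 1.00, 0.876 and 1.17 FPKM with rmMETRNL, again without overlap (difference -0.25, SE 0.12; limma adjusted p = 0.397). The difference was -0.16 without vehicle library 3, which held its highest value, and -0.48 in voom. Its separation is narrow, and it rests on 45 to 103 reads per library. Ddx58, which encodes RIG-I itself, had a mean of 1.29 ± 0.118 FPKM with vehicle (SD, n = 3, as below) and 1.32 ± 0.193 FPKM with rmMETRNL, with overlapping groups.

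Among enzymes that act on RNA and nucleotides, Samhd1 (ENSMUSG00000027639, chromosome 2), which encodes a hydrolase that depletes nucleotides needed for viral DNA synthesis, stood at 6.47, 6.19 and 7.39 FPKM with vehicle and 6.41, 6.48 and 5.98 FPKM with rmMETRNL. Adar, the gene of an adenosine deaminase that edits double-stranded RNA, stood at 5.67, 5.78 and 5.14 FPKM with vehicle and 5.71, 5.93 and 6.29 FPKM with rmMETRNL. Both genes had overlapping groups, and 16.8% of the exon bases of Adar are shared with Chrnb2 on the other strand. Rsad2, which encodes viperin, had 2.74 ± 0.0840 and 3.16 ± 0.555 FPKM, with the lowest of all 6 values in rmMETRNL library 1. The exonuclease gene Isg20 had 2.74 ± 0.354 and 2.26 ± 0.456 FPKM. Eif2ak2, the gene of the kinase PKR that halts translation on double-stranded RNA, had 1.90 ± 0.220 and 2.04 ± 0.397 FPKM. None of the 5 reached an unadjusted limma p of 0.05.

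The most abundant members encode membrane restriction factors. Ifitm3 (ENSMUSG00000025492, chromosome 7, 141009586 to 141010770) encodes a protein that blocks viral fusion in endosomes, and it stood at 117, 124 and 133 FPKM with vehicle and 119, 125 and 111 FPKM with rmMETRNL. That is a higher mean than 95.9% of the genes tested. Bst2 (ENSMUSG00000046718, chromosome 8, 71534255 to 71537456) encodes tetherin, which holds budding virus at the cell surface, and it stood at 52.8, 55.8 and 63.9 FPKM with vehicle and 59.8, 60.4 and 51.1 FPKM with rmMETRNL. In both genes the groups overlapped and rmMETRNL library 3 was the lowest of the 6, with differences of -0.08 (95% interval -0.23 to 0.08) and -0.01 (-0.23 to 0.21). Ifitm3 shares 20.5% of its words with other genes.

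Guanylate-binding proteins and immunity-related GTPases coat and break open vacuoles that hold microbes and are known chiefly as targets of interferon gamma. Gbp2 (ENSMUSG00000028270, chromosome 3, 142620602 to 142638008), the only 1 of the 4 Gbp genes in the set above 1 FPKM, stood at 1.78, 1.72 and 2.86 FPKM with vehicle and 2.99, 2.61 and 3.03 FPKM with rmMETRNL. Vehicle library 3 lay within the rmMETRNL range and the other vehicle libraries below it. The difference was 0.33 (SE 0.15, limma adjusted p = 0.359), the largest in size of the 22 on this scale. With 1 library left out it ran from 0.24 (without vehicle library 2, limma adjusted p = 0.584) to 0.49 (without vehicle library 3, limma adjusted p = 0.331). Gbp5, which also takes part in inflammasome activation, lies near Gbp2 on chromosome 3 and stood at 0.268, 0.327 and 0.422 FPKM with vehicle and 0.620, 0.518 and 0.518 FPKM with rmMETRNL. Its groups did not overlap, on 27 to 64 reads per library; it was tested only when no filter on low values was set (difference 0.21, limma adjusted p = 0.561). Gbp7 and Gbp3 had means of 0.509 and 0.391 FPKM with overlapping groups.

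Of the 5 immunity-related GTPase genes, Ifi47, Irgm1 and Igtp reached 1 FPKM. Ifi47 was the most abundant, at 2.11, 1.82 and 1.60 FPKM with vehicle and 2.50, 1.06 and 2.24 FPKM with rmMETRNL, so that rmMETRNL libraries held both its highest and its lowest value. Irgm1, a regulator of the other family members and of autophagy, had 1.55 ± 0.235 and 1.69 ± 0.0963 FPKM. Igtp had 1.21 ± 0.323 and 0.936 ± 0.451 FPKM and overlaps Irgm2 in the annotation on the same strand (8.01% of its exon bases).

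PYHIN proteins bind DNA in nucleus and cytosol. Ifi204 (ENSMUSG00000073489, chromosome 1, 173747293 to 173766943) stood at 5.17, 5.29 and 5.29 FPKM with vehicle and 5.55, 6.03 and 6.10 FPKM with rmMETRNL, every rmMETRNL library above every vehicle library. The difference was 0.14 (SE 0.06), with an unadjusted p of 0.0455 and an adjusted p of 0.332 in limma. It shares 46% of its words with other genes, with Ifi211 sharing more than any other gene, which makes its count uncertain. Ifi205 had 2.10 ± 0.0883 and 2.27 ± 0.214 FPKM, with overlapping groups.

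The remaining 6 genes have varied roles and none had separated groups. Ifi35, which encodes a partner of the STAT-binding protein NMI, stood at 5.58, 5.11 and 5.34 FPKM with vehicle and 5.25, 5.31 and 4.65 FPKM with rmMETRNL. Parp14, which encodes an ADP-ribosyltransferase, stood at 3.56, 3.75 and 3.38 FPKM with vehicle and 3.19, 3.49 and 3.67 FPKM with rmMETRNL. Trim30a, the gene of a ubiquitin ligase that restrains NF-kappaB signalling, stood at 3.08, 2.77 and 3.47 FPKM with vehicle and 2.99, 2.90 and 3.20 FPKM with rmMETRNL. All 3 varied as much within a group as between groups. Rtp4 and the apoptosis-related gene Xaf1 had means of 0.340 and 0.247 FPKM, and Ifi44 is described above. Of the 40 genes 15 share over 10% of their words with other genes, Ifi35 (13.4%), Isg15 (13.1%) and Trim30a (12%) among them.

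None of the 22 tested genes passed the pretreatment comparison. Limma called 0 of 22 at an adjusted p of 0.05 (lowest 0.314, Oas1a), against 0 of all 9867 genes (0%). Limma voom on reads recovered from the FPKM values called 0 of the 22 (lowest adjusted p = 0.198, Ifih1), against 91 of 9867 (0.922%). An unadjusted limma p under 0.05 was seen for 2 of the 22, against 14.7% of all genes tested: Ifi204 was higher (7.54% of all genes) and Oas1a lower (7.13%). Voom gave 3 of the 22 an unadjusted p under 0.05, against 15.7% of all genes. The groups did not overlap in 3 of the 22 (21.5% of all genes), with Ifi204 higher (10.9%) and Ifih1 and Dhx58 lower (10.6%). Of the 22 differences 11 were above 0, against 48.4% of all genes, and 11 below, with a median of 0.0012, beside a median of -0.0056 over all genes tested. They ranged from -0.25 (Dhx58) to 0.33 (Gbp2).

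The 95% limma intervals had a median width of 0.46 on the log2(FPKM + 1) scale. All 22 lay within a 2-fold change of FPKM + 1 either way and 20 within a 1.5-fold change of it. These are not bounds on the change of FPKM itself, because this scale understates the change of genes near 1 FPKM. For Igtp the difference was -0.21 on this scale and -0.47 in voom. The intervals are for each gene alone and are not adjusted for the number of genes. Of the 40 genes, 16 had at least 100 reads in every library.

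**Figure D3:**
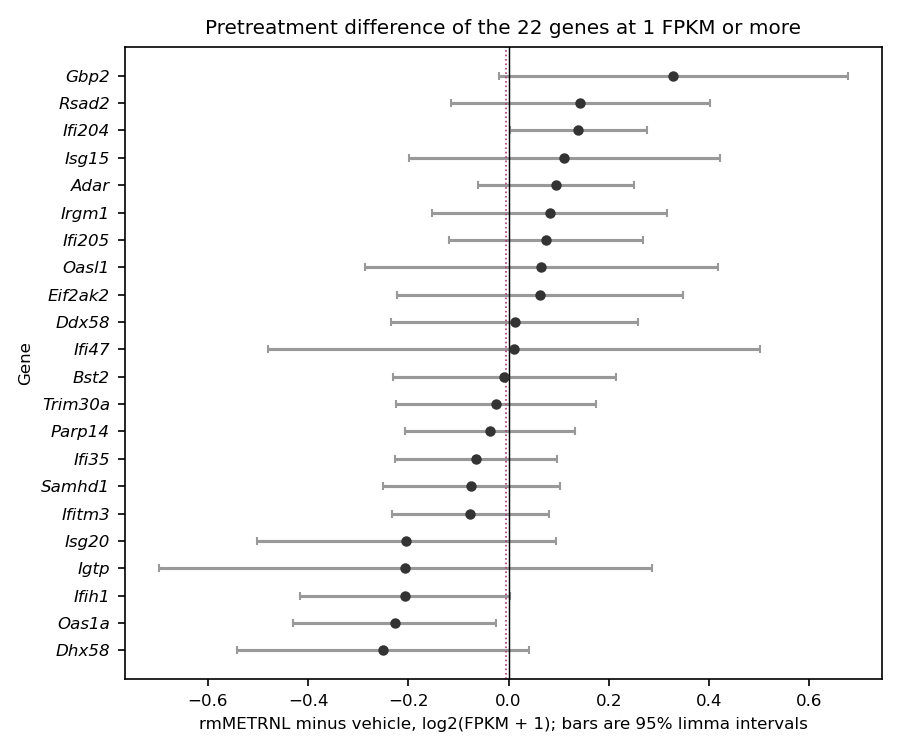
Difference between rmMETRNL and vehicle on the log2(FPKM + 1) scale for the 22 genes that reached 1 FPKM, with 95% limma intervals (n = 3 per group); the dotted line is the median of all genes tested. The points run from -0.25 (Dhx58) to 0.33 (Gbp2), and 20 of the 22 intervals include 0.

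Across libraries, rmMETRNL library 3 had the largest counts of both lowest and highest values within the set. It held the lowest value of 9 of the 22 genes, and the other libraries held the lowest value of 2 or 3 each. It held the highest value of 6 genes, and the others that of 2 to 5 each. The same counts were not made over all genes tested, so they are not shown to be particular to this set. The median deviation of the 22 genes was -0.0076 in rmMETRNL library 3 and -0.026 in vehicle library 2. The 9 genes lowest in rmMETRNL library 3, among them Ifitm3, Isg15, Bst2, Oas1a and Ifi35, had a median length of 1860 bases but also included Samhd1 (9150 bases) and Ifih1 (8165 bases), and the 6 genes highest in it (Adar, Ifi204, Rsad2, Gbp2, Ifi205 and Eif2ak2) a median of 4256 bases. Over all genes tested, the deviation of rmMETRNL library 3 had a correlation of 0.203 with log2 gene length, as a description across genes that share the library, and the other 5 lay between -0.14 and 0.0534. With each library's trend with length removed, the median difference was 0.016, beside 0.0012 without this step. The count of members that passed was 0 with and without it, so this count does not bear on the trend. The summed FPKM of the 40 genes was 269 to 294 with vehicle and 254 to 287 with rmMETRNL.

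**Figure D4:**
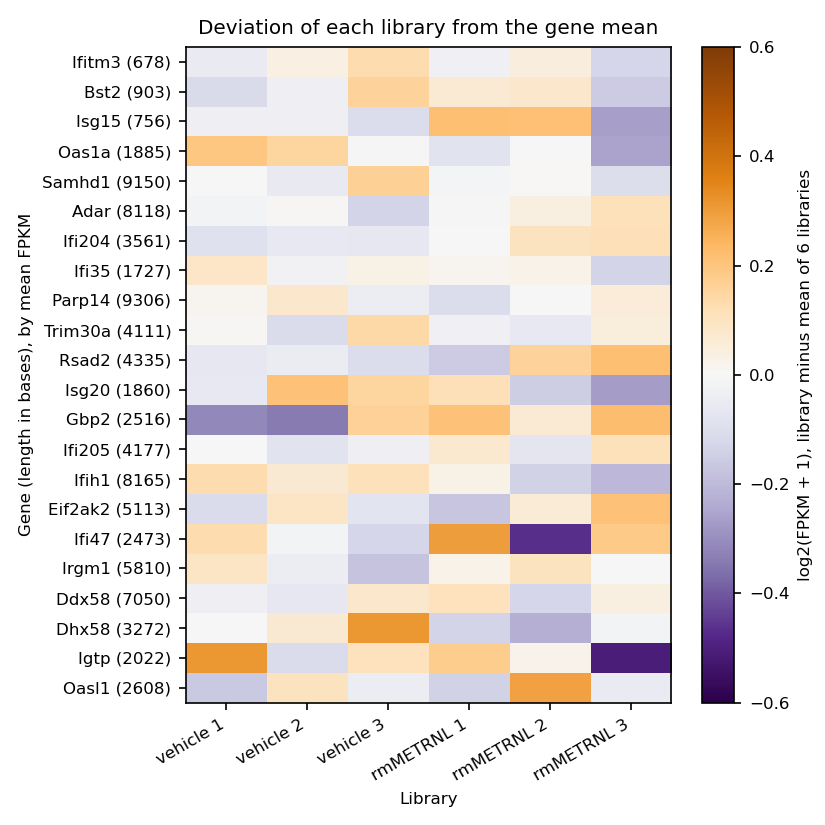
Deviation of each library from the gene's mean over 6 libraries, on the log2(FPKM + 1) scale, for the 22 genes at 1 FPKM or more, with gene lengths in bases. rmMETRNL library 3 (right) is the lowest library for 9 genes, the short genes Ifitm3, Bst2 and Isg15 at the top among them, and the highest for 6.

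Upstream of the effector genes, the receptors were expressed and the ligands were not detected or nearly so. Of 21 interferon ligand genes 17 had no read in any library, among them Ifnb1, for which a count of 0 allows up to 0.299 FPKM in the shallowest library. The other 4 (Ifnk, Ifng, Ifna7 and Ifna13) had 37 reads in all, of which Ifnk, a type I interferon gene best known in keratinocytes, had 30. Of the receptor genes, 5 of 6 reached 1 FPKM, from 14.9 FPKM (Ifngr1) to 26.3 FPKM (Ifnar2), and Ifnlr1, the lambda receptor gene, had 0.655 FPKM. Below the receptors Jak1 (42.7 FPKM) and Jak2 (27.7 FPKM) stood far above Irf9 at 2.78 and Stat2 at 1.64 FPKM.

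**Figure D5:**
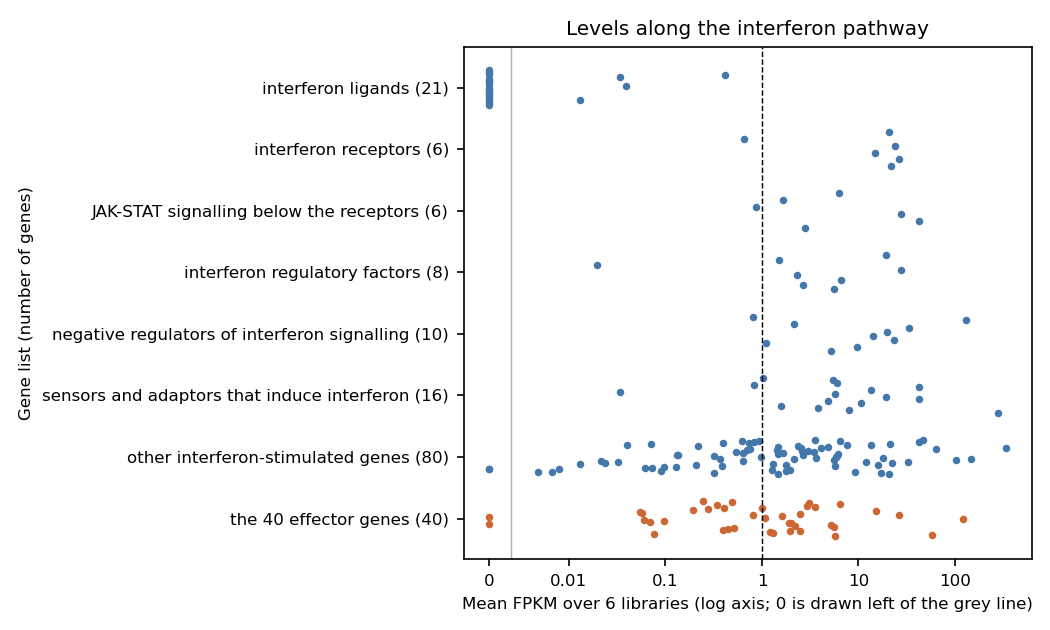
Mean FPKM over the 6 libraries (log axis, 0 drawn left of the grey line, dashed line at 1 FPKM) of each gene in the lists along the interferon pathway and of the 40 effector genes (orange). No ligand gene reaches 1 FPKM, whereas 5 of the 6 receptor genes lie between 14.9 and 26.3 FPKM.

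None of the 85 genes that reached 1 FPKM, of 147 in the 7 lists, passed limma, and 14 of the 85 had an unadjusted limma p under 0.05, beside 14.7% of all genes. Voom called 1 of the 85, beside 0.922% of all genes. It was Clec7a, the gene of Dectin-1, a receptor for fungal beta-glucan, which was lower with rmMETRNL (306 ± 9.87 and 253 ± 7.70 FPKM; adjusted p = 0.0243 in voom and 0.151 in limma). The groups did not overlap in 21 of the 85, beside the 21.5% of all genes. The interferon regulatory factors are transcription factors that act above and below interferon, and 5 of their 7 tested genes had a difference below 0 and 2 above, beside 48.4% of all genes above 0. Irf7, which amplifies interferon alpha production, stood at 1.96, 1.57 and 1.82 FPKM with vehicle and 1.52, 1.13 and 1.07 FPKM with rmMETRNL (limma adjusted p = 0.30). Irf3 stood at 7.55, 6.13 and 7.98 and at 6.07, 6.02 and 5.72 FPKM (adjusted p = 0.322 in limma), and Irf4 at 1.84, 1.82 and 2.26 and at 2.41, 2.65 and 2.71 FPKM (adjusted p = 0.274 in limma). In these 3 genes the groups did not overlap, with Irf4 higher and Irf7 and Irf3 lower with rmMETRNL.

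Among the other lists, 3 of 5 receptor genes and 4 of 5 JAK-STAT genes had differences above 0, beside the same 48.4% of all genes, with Ifngr1 first by p (13.7 ± 0.869 FPKM with vehicle and 16.0 ± 0.75 FPKM with rmMETRNL; limma adjusted p = 0.262). Of 9 tested negative regulators 5 were above 0. Socs3 had 120 ± 9.92 and 142 ± 7.24 FPKM (limma adjusted p = 0.247), and Socs1, the main brake on interferon receptors, went the other way at 2.36 ± 0.162 and 1.91 ± 0.268 FPKM (limma adjusted p = 0.369). Of 14 tested sensors and adaptors 10 were above 0. Myd88, the Toll-like receptor adaptor gene, had 9.65 ± 0.217 and 11.5 ± 0.233 FPKM, and Ticam2, the bridging adaptor of TLR4 in the interferon branch, 4.68 ± 0.966 and 6.75 ± 0.542 FPKM, with limma adjusted p-values of 0.189 and 0.238; Ticam2 shares 19.5% of its words with other genes.

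A further list held 80 interferon-stimulated genes outside the 40. Of these 45 reached 1 FPKM, with a median of 5.61 FPKM, led by the growth regulator Slfn2 (339 FPKM), Lgals3bp (147 FPKM) and Ifitm2 (102 FPKM). The chemokine gene Cxcl10, a standard readout of interferon action, had 0.0975 to 0.509 FPKM. Differences were above 0 in 20 and below 0 in 25 of the 45, with a median of -0.020, and limma and voom each called 0. Ly6c2 (2.93 ± 0.256 and 4.40 ± 0.536 FPKM; limma adjusted p = 0.189), Tor3a (19.9 ± 0.572 and 22.7 ± 0.770 FPKM; adjusted p = 0.238) and the mitochondrial ribonuclease gene Pnpt1 (2.93 ± 0.314 and 2.23 ± 0.157 FPKM; adjusted p = 0.259) had the smallest p.

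The libraries held 13235001 to 18145733 reads recovered from the FPKM values, and all 12 macrophage marker genes reached 1 FPKM. The groups did not overlap in 7 of the 12, beside 21.5% of all genes, with 4 higher and 3 lower with rmMETRNL. Limma called 0 of the 12 and voom called 1, beside 0% and 0.922% of all genes. It was Cd14, lower with rmMETRNL (2647 ± 62.0 and 2298 ± 53.4 FPKM, adjusted p = 0.0461 in voom and 0.189 in limma). Because 1 protocol text mentions retinas, 9 retina genes were examined, and none reached 1 FPKM. The summed FPKM of 8 plasmacytoid dendritic cell genes was 3.63 to 6.28 in the vehicle and 4.11 to 5.22 in the rmMETRNL libraries, and that of 7 conventional dendritic cell genes 29.4 to 33.0 and 28.6 to 32.1. Summed neutrophil markers were 113 to 120 and 123 to 132 FPKM (3 of 9 genes at 1 FPKM or more, Elane at 0). Most of this sum was S100a8 (mean 84.9 FPKM), with overlapping groups, and S100a9 (24.4 ± 0.781 and 34.8 ± 3.56 FPKM). Of the 3 tested neutrophil genes 2 had a difference above 0 and 1, Retnlg, below (6.58 ± 1.31 and 6.49 ± 0.654 FPKM). B cell markers summed to 11.01 to 12.1 and 12.8 to 13.2 FPKM (3 of 7). NK and T cell markers summed to 3.20 to 4.23 and 4.44 to 5.89 FPKM (1 of 10). In each of these lists the sums did not overlap between the groups. The summed retina genes did not overlap either, at 0.386 to 0.473 FPKM with vehicle and 0.494 to 0.790 FPKM with rmMETRNL. Summed fibroblast markers (8.28 to 8.52 and 8.08 to 9.03 FPKM) and mesothelial and epithelial markers (3.92 to 4.16 and 3.14 to 5.00 FPKM) overlapped. Of all single genes tested, 21.5% had groups without overlap. The part of these cell types in the values above was not tested, and in bulk RNA fewer cells of a type and less RNA per cell cannot be told apart.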

How the data were processed

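RNA-seq was measured in 6 libraries, 3 per pretreatment. Per the labels' protocols, libraries came from total RNA with an Illumina kit, in a text that speaks of retinas. The authors deposited 1 table of FPKM values, scaled by the gene lengths it lists. GRCm38 and mm10 are the builds in the submitters' processing notes; for the aligner, counter and strand setting the entry is: not given in the sources used here. Reads were recovered by dividing FPKM times length by the value of 1 read in that library, which came out whole, within 0.05 reads, for 100% of values above 0 and under 100000 reads. The test was two-sided limma (version 3.58.1, R 4.3.3) with a variance trend, run on log2(FPKM + 1) for the 9867 genes averaging 1 FPKM or more, with Benjamini-Hochberg adjustment over all of them. Fold changes are on that scale. The fit was tested on simulated data. Limma voom on the recovered reads with trimmed-mean scaling, other pseudocounts, filters, scalings and variance models, the replicate number as a block, a length correction and leaving out each library were alternatives; leaving out genes that share over 10% of their words was added after seeing the data. Members and lists were chosen with earlier results of these data known. Words are the 31-base stretches of the longest GENCODE M21 transcript of a gene found in other genes; 39 of the 40 genes had the coordinates of GENCODE M21. Of the 40 effector genes, values in every library are given for those with an unadjusted p under 0.05 or groups without overlap, the 10 most abundant and the most abundant of each role. Of each pathway list up to 3 genes of smallest p are named, most of them with means only. Intervals and read limits cover the spread between samples and counting error only, respectively. The result for 1 pathway gene is not reported here.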

Additional observations from a re-analysis of the deposited data

How the results depend on the processing

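The count of effector genes called stayed at 0 under all 19 alternatives (lowest adjusted p from 0.198 to 0.553). Oas1a, Ifi204, Ifih1 and Dhx58 kept the direction of their difference under every alternative in which they were tested. They were picked from these same data for an unadjusted p under 0.05 or groups without overlap. Where the groups do not overlap, leaving out a library or changing the pseudocount, filter or variance model cannot reverse the direction. The kept direction is therefore no added support. Over all genes, the 0 calls of limma became 5 with no filter on low values, 1 each with TPM rescaling, array weights and the length trend removed, and 91 with voom on recovered reads, and stayed at 0 when any 1 library was left out. The median difference of the 22 tested effector genes, 0.0012, was -0.037 with a minimum of 5 FPKM (8 genes), -0.023 with array weights, and between -0.028 and 0.027 when 1 library was left out, so its sign differed between settings. The count of effector genes reaching 1 was 28 after rescaling to TPM, which multiplies all values of a library by 1 factor, and 21 to 22 when 1 library was left out. Same-numbered libraries of the groups had deviations correlated at -0.0212, 0.0074 and -0.0454, so the numbers are not taken as pairs. With the replicate number as a block limma called 0 genes and 0 effector genes. The block leaves every difference unchanged in this balanced design, so the median of 0.0012 was the same by construction. Depth limits most the 8 effector genes with under 10 reads in every library.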
